A study of Homo sapiens with 6 samples.

Results

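The integrated stress response gene set consists of 36 named genes, among the 58735 genes of the count table, and holds kinases of the translation factor eIF2alpha, the transcription factor ATF4 and known ATF4 targets. Its members were taken by gene name, and the set was chosen on results of this same contrast, with GTPBP2 known to lie lower after SRSF11 knockdown. Fold changes and calls of the members between si-NC and si-SRSF11 are therefore a description, and no p-value is given for them. The study used LoVo, a human cell line from colorectal cancer, transfected either with a negative control siRNA (si-NC, 3 libraries) or with one directed at the splicing factor SRSF11 (si-SRSF11, 3 libraries). Apart from the siRNA, the labels give no difference in treatment between the groups, and the sources do not name which of the SRSF11 siRNAs was used for RNA-seq. Polyadenylated RNA was read as paired-end RNA-seq, and the authors deposited raw counts per gene, with totals between 14369525 and 16685719 per library. The study calls the RNA samples independent, but neither it nor the labels say that they came from separate cultures, so spreads and p-values measure the variation between these samples, which may be technical.

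In the integrated stress response, kinases that sense misfolded protein, amino acid shortage, haem shortage or viral RNA phosphorylate eIF2alpha, which lowers general translation. The mRNA of ATF4 is then translated more, because short reading frames in its leader no longer hold ribosomes back, and ATF4 switches on genes for amino acid synthesis, transport and tRNA charging, together with factors that decide between recovery and cell death. PPP1R15A (GADD34), itself an ATF4 target, directs a phosphatase to eIF2alpha and so closes the loop. The counts measure RNA alone and hold no reading of eIF2alpha phosphorylation or of ATF4 protein.

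The labels give the condition of each library, whereas a picture in the study assigns these library names the other way round, so the targeted gene was read first. SRSF11 (ENSG00000116754) stood at 87.6, 84.3 and 87.5 CPM (counts scaled to a common library size with TMM factors) in the si-NC libraries and at 50.4, 48.5 and 49.5 CPM in the si-SRSF11 libraries. It was lower in each library labelled si-SRSF11, at 57.2% of the si-NC level. In edgeR's quasi-likelihood test this was -0.81 on the log2 scale, with a standard error (SE) of 0.054 and an adjusted p of 6.1e-10. An exact permutation test of a single gene cannot go below p = 0.10 with 3 samples against 3. Of 9 colorectal epithelial markers, 9 were detected with at least 10 counts in 3 libraries, summing to 5733 to 6091 CPM in si-NC and to 5825 to 6229 CPM in si-SRSF11, with CDX1 and CDX2 called higher in si-SRSF11 and CEACAM5 near 1 CPM. The 8 markers of leukocytes, endothelium and fibroblasts summed to 16.9 to 18.1 CPM in si-NC and to 15.8 to 18.9 CPM in si-SRSF11. Of these, 4 were detected with at least 10 counts in 3 libraries, and PTPRC and DCN had 0 counts in each library. Most of the sum was the fibroblast marker COL1A1, with means of 12.7 CPM in si-NC and 11.7 CPM in si-SRSF11. The leukocyte marker CD14 had 39 to 67 counts per library.

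ATF4 pairs with C/EBP proteins on a composite DNA element, and the members that carry its core near their start are shown first. Fold change values did not decide this feature. The set was listed as eIF2alpha kinases, ATF4 and known ATF4 targets, so its share of the core is not independent of that choice. The core was searched as TGATGNAA on both strands, from 250 bases before to 50 bases after the start, in RefSeq promoters (GRCh38.p14) found for 30 of the 36 members. It was present in 6 member genes (20.0% of 30), beside 4.46% of the 27305 genes with a promoter in the table and 2.65% of the 10601 such genes that were tested for expression. With C as the free base, 5 of the 30 members (16.7%) and 1.08% of all genes held it. Each window below runs 5′ to 3′ on the strand of its gene, with the 8 bases of the core in capitals.
ASNS, chr7:97872458-97872487, minus strand: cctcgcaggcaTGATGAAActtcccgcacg
CEBPG, chr19:33374060-33374089, plus strand: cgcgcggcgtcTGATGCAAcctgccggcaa
JDP2, chr14:75427995-75428024, plus strand: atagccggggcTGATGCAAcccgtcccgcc
PPP1R15B, chr1:204412026-204412055, minus strand: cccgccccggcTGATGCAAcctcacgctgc
CHAC1, chr15:40953251-40953280, plus strand: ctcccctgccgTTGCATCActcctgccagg
FGF21, chr19:48755459-48755488, plus strand: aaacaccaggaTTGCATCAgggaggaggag
In CHAC1 and FGF21 the core lies on the strand opposite to the gene, so it reads as its reverse complement. The last base of the core was 9 bases before the RefSeq start in JDP2, 35 in CEBPG, 47 in FGF21, 61 in ASNS, 202 in CHAC1 and 220 in PPP1R15B. The windows of ASNS and CHAC1 also lie within exons of other annotated isoforms. The promoter windows of GTPBP2, DDIT3 and PPP1R15A held no match to these letters, and sites outside the searched windows were not read. A match is a description of the letters and was not tested for binding.

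In control LoVo cells most of the set was expressed. Levels between genes are compared in TPM, computed here from counts per kilobase of the gene's exons, and 18 members had a mean of at least 100 TPM in si-NC. DDIT4 (REDD1), an inhibitor of mTORC1, had the highest level at 1053 TPM, followed by the serine synthesis enzyme PSAT1 at 805 TPM, TRIB3 at 773 TPM and ATF4 at 766 TPM. TRIB3 and ATF4 overlapped in range over the si-NC libraries, whereas DDIT4 lay above PSAT1 and PSAT1 above TRIB3 in each of them. PPP1R15A followed at 621 TPM, PCK2 at 485 TPM, SHMT2 at 418 TPM, CEBPB at 390 TPM, DDIT3 at 317 TPM and MTHFD2 at 307 TPM. Along the whole order, 12 of 33 neighbouring pairs overlapped in range and so are not separated by these libraries. The order also depends on the gene length, which takes the exons of all annotated isoforms. By CPM, which does not use length, TRIB3 ranked 1 and PHGDH ranked 8 in the set, against 3 and 14 by TPM. The eIF2alpha kinases were below these most strongly expressed members on this scale, with EIF2AK1 at 88.2 TPM, EIF2AK4 at 15.1 TPM and EIF2AK3 at 9.92 TPM, among the levels of the weaker downstream genes such as JDP2 at 50.6 TPM, CTH at 42.3 TPM and INHBE at 10.5 TPM. ASNS, often used as a reporter gene of ATF4 activity, was also low at 16.4 TPM. This level is uncertain, since ASNS shares much of its sequence with an overlapping gene, as given below. ALDH1L2 and STC2 were near the bottom at 0.797 and 0.559 TPM.

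**Figure D1:**
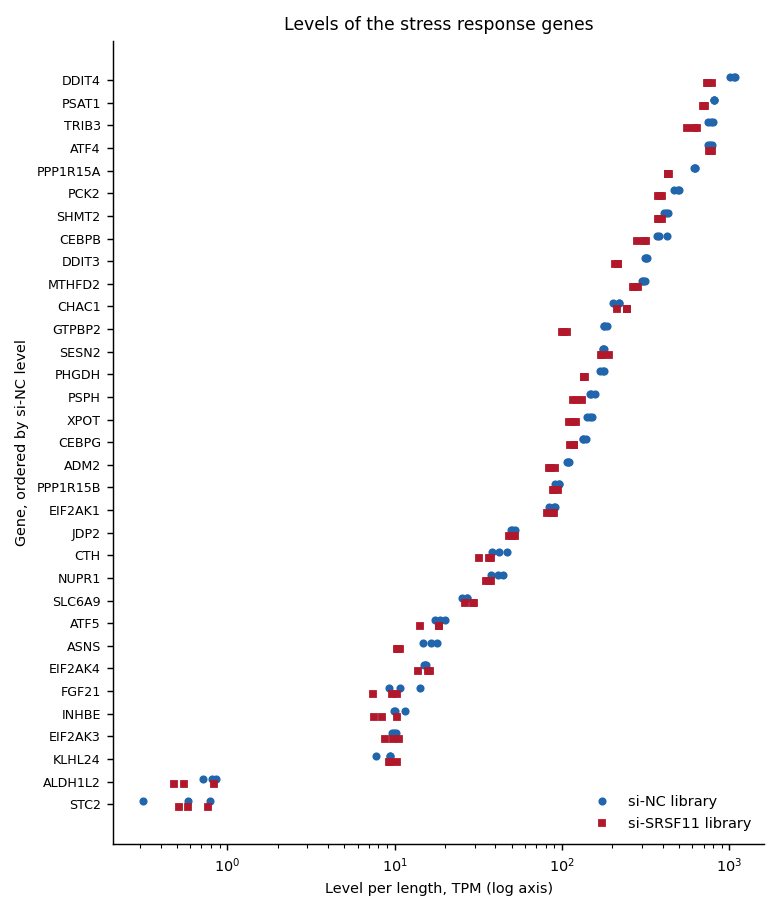
Level of each expressed member in TPM (log axis), 1 point per library, for 3 si-NC libraries (circles) and 3 si-SRSF11 libraries (squares), ordered by the si-NC mean. Levels run from 1053 TPM for DDIT4 to below 1 TPM for ALDH1L2 and STC2, and the points of a group lie close together except in the lowest genes.

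VEGFC, VLDLR and CBS were too low to test. VEGFC, a lymphatic growth factor, had 0 counts in each library. VLDLR, a lipoprotein receptor, had 0 counts in the 3 si-NC libraries and 0, 1 and 3 counts in the si-SRSF11 libraries. CBS, the first enzyme of transsulfuration, had 4 counts in si-NC replicate 1 and 0 elsewhere. Its copy CBSL holds 84.4% of all 100-nt stretches in the longest CBS transcript, and had 4 counts in si-SRSF11 replicate 2 and 0 elsewhere. How reads matching both genes were counted is not given, so the level of CBS is uncertain. A count of 0 allows a level of up to 3 counts, or 0.180 to 0.209 CPM by library, for counting error only.

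Of the 33 tested members, 13 were called lower and 2 higher in si-SRSF11 at an adjusted p under 0.05, and 18 were not called. Over all 15801 genes tested by edgeR, 24.6% were called, with 13.2% higher and 11.4% lower. Scaling by library size alone turned this balance over all genes, from 2081 higher and 1805 lower to 1585 higher and 2289 lower, and gave 1 higher and 14 lower among the members. In 20 of the 33 tested members the si-SRSF11 libraries did not overlap the si-NC libraries, beside 38.8% of all tested genes. The median log2 fold change was -0.14 over the tested members and 0.00 over all tested genes. Because the set was chosen on this contrast, nothing is read from these shares. Most members are strongly expressed, and among the 2174 tested genes with a mean of at least 100 CPM 45.3% were called and 19.0% were called lower. The 21 members at that level held 12 that were called lower and 1 that was called higher. No member passed an absolute log2 fold change of 1, which 173 of all tested genes did. The set took 0.843% to 0.865% of all counts in the si-NC libraries and 0.726% to 0.742% in the si-SRSF11 libraries. In RNA from whole cultures, fewer cells that express a gene and less RNA per cell cannot be told apart.

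**Figure D2:**
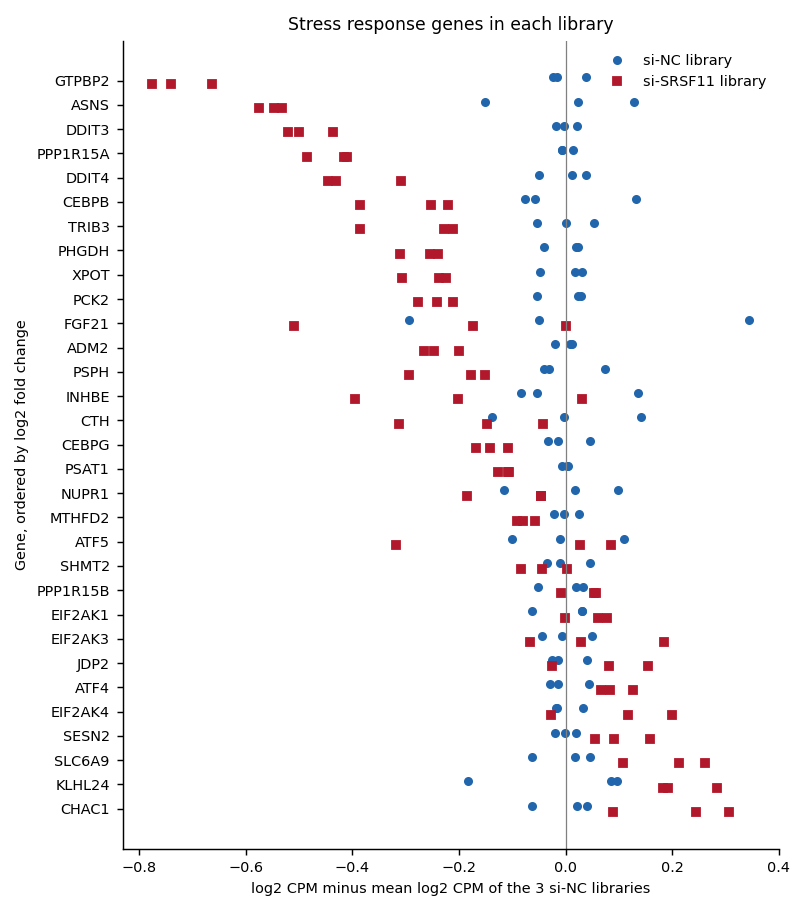
Level of the members in each library as log2 CPM minus the mean log2 CPM of the 3 si-NC libraries, for tested members with at least 4 CPM in si-NC, ordered by log2 fold change (circles, si-NC; squares, si-SRSF11). GTPBP2, ASNS, DDIT3, PPP1R15A and DDIT4 show the si-SRSF11 libraries apart from the si-NC libraries on the low side. So do CEBPB, CEBPG, TRIB3, XPOT, PHGDH, PSAT1, PSPH, MTHFD2, PCK2 and ADM2. On the high side the libraries lie apart in CHAC1, KLHL24, SLC6A9, SESN2 and ATF4 alone.

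The 3 kinases of the set, which stand at the head of the pathway, did not pass the test. The eIF2alpha kinase EIF2AK2 (PKR), which lies outside the set, was called higher and is given below. EIF2AK1 (HRI), which senses haem and mitochondrial stress, stood at 163 ± 6.11 CPM in si-NC and 168 ± 4.81 CPM in si-SRSF11 (SD, n = 3), a log2 fold change of 0.05 with a 95% interval from -0.05 to 0.15. EIF2AK3 (PERK), the kinase of the endoplasmic reticulum, had 17.9 ± 0.593 and 18.6 ± 1.65 CPM (SD, n = 3), with an interval from -0.14 to 0.25. EIF2AK4 (GCN2), which senses uncharged tRNA, had 60.2 ± 1.21 and 64.5 ± 5.06 CPM (SD, n = 3), with an interval from -0.03 to 0.23. The groups overlapped in each of these 3 genes.

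ATF4 mRNA was not among the genes called. ATF4 (ENSG00000128272, chr22:39519695-39522685 of GRCh38, plus strand) stood at 633.6, 627.4 and 659.4 CPM in si-NC and at 678.3, 670.6 and 699 CPM in si-SRSF11. The si-SRSF11 libraries were all slightly above the si-NC libraries, with a log2 fold change of 0.09 (SE 0.044) that kept its sign in each alternative, between 0.06 and 0.12. Among the other bZIP factors, DDIT3 (CHOP), which promotes cell death under lasting stress, was the one with the largest difference. DDIT3 (ENSG00000175197, chr12:57516588-57521737, minus strand) had 137.6, 136.1 and 139.8 CPM in si-NC and 97.45, 96.04 and 101.9 CPM in si-SRSF11, so each knockdown library lay below each control library. Its log2 fold change was -0.49 (SE 0.047), or 71.4% of the si-NC level. DDIT3 shares exon bases with a gene on the opposite strand, as given below. CEBPB, a partner of ATF4, had 243.6, 240.4 and 277.7 CPM in si-NC and 212.6, 193.8 and 217.3 CPM in si-SRSF11, a log2 fold change of -0.29 (SE 0.057). CEBPG, another dimer partner of ATF4, had 193.4, 204.4 and 196.1 CPM in si-NC and 179.3, 183.7 and 176.1 CPM in si-SRSF11. It was called lower with a log2 fold change of -0.14 (SE 0.047), and the call was lost without si-NC replicate 1 (-0.16), si-NC replicate 2 (-0.12) or si-NC replicate 3 (-0.15). ATF5, which is under the same kind of translational control as ATF4, had 18.4 ± 1.34 and 17.6 ± 2.54 CPM (SD, n = 3) and overlapping groups. JDP2, a repressor of the AP-1 family, had 105 ± 2.61 and 110 ± 6.85 CPM (SD, n = 3), also with overlapping groups.

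Of the regulatory subunits of the eIF2alpha phosphatase, the stress-induced subunit PPP1R15A was called lower and the constitutive subunit PPP1R15B was not. PPP1R15A (ENSG00000087074, chr19:48872392-48876057 of GRCh38, plus strand) stood at 635.8, 635.7 and 645.4 CPM in si-NC and at 456.3, 478.8 and 480.8 CPM in si-SRSF11. All 3 knockdown libraries were far below the controls, with a log2 fold change of -0.44 (SE 0.044), which left 73.9%. PPP1R15B (CReP) had 163 ± 5.12 CPM in si-NC and 167 ± 4.31 CPM in si-SRSF11 (SD, n = 3), a log2 fold change of 0.03 with a 95% interval from -0.07 to 0.13. The intervals of PPP1R15A, from -0.53 to -0.35, and of PPP1R15B did not meet, but the difference between the genes was not tested. Of this pair, PPP1R15B carried the ATF4 core printed above.

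GTPBP2 (ENSG00000172432, chr6:43605316-43629162, minus strand), a GTPase that acts in the rescue of stalled ribosomes, had the largest difference in the set. It stood at 273.3, 274.7 and 285.3 CPM in si-NC and at 162.3, 175.4 and 166.3 CPM in si-SRSF11, so that the groups were widely apart. The log2 fold change was -0.73 (SE 0.048, 95% interval from -0.82 to -0.63), or 60.5% of the si-NC level, and it stayed between -0.76 and -0.71 with each library left out in turn. By size, the measure known when the set was chosen, it ranked 405 among the falls of all 15801 tested genes, with 2539 to 4445 counts per library. The interval, the range and the rank describe a fall that was known beforehand and are no further support for it. The paralogue GTPBP1 was lower as well, from 183 ± 0.645 to 140 ± 8.19 CPM (SD, n = 3). In edgeR's quasi-likelihood test this was -0.39 on the log2 scale (SE 0.050, adjusted p = 5.6e-06). GTPBP2 shares 0.087% of its exon bases with another gene.

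Among the other brakes and effectors of stress, DDIT4, TRIB3 and XPOT were called lower and CHAC1 higher. DDIT4 had 726, 695.6 and 739.3 CPM in si-NC and 529, 534.2 and 581.6 CPM in si-SRSF11, a log2 fold change of -0.39 (SE 0.047). TRIB3, a pseudokinase that restrains ATF4 and CHOP, had 882, 850.3 and 914.8 CPM in si-NC and 752.8, 675.6 and 762.1 CPM in si-SRSF11, a log2 fold change of -0.27 (SE 0.049). XPOT, the exporter of tRNA from the nucleus, had 366.6, 363.1 and 346.8 CPM in si-NC and 307.3, 304.4 and 289.9 CPM in si-SRSF11, a log2 fold change of -0.26 (SE 0.047). In these 3 genes each knockdown library lay below each control library. CHAC1, an enzyme that degrades glutathione, went the other way, with 147.7, 139.3 and 149.7 CPM in si-NC and 172.4, 154.7 and 179.9 CPM in si-SRSF11. Its log2 fold change was 0.22 (SE 0.055), or 116% of the si-NC level, and it stayed called whichever library was left out. SESN2, an inhibitor of mTORC1 that senses leucine, had 202 ± 2.78 and 216 ± 7.98 CPM (SD, n = 3), and KLHL24, a ubiquitin ligase adaptor, had 25.3 ± 2.69 and 29.4 ± 1.15 CPM (SD, n = 3). Neither was called, although the si-SRSF11 libraries lay above the si-NC libraries in both genes. NUPR1, a small stress-induced chromatin protein, had 77.7 ± 5.73 and 72.9 ± 4.02 CPM (SD, n = 3) with overlapping groups.

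**Figure D3:**
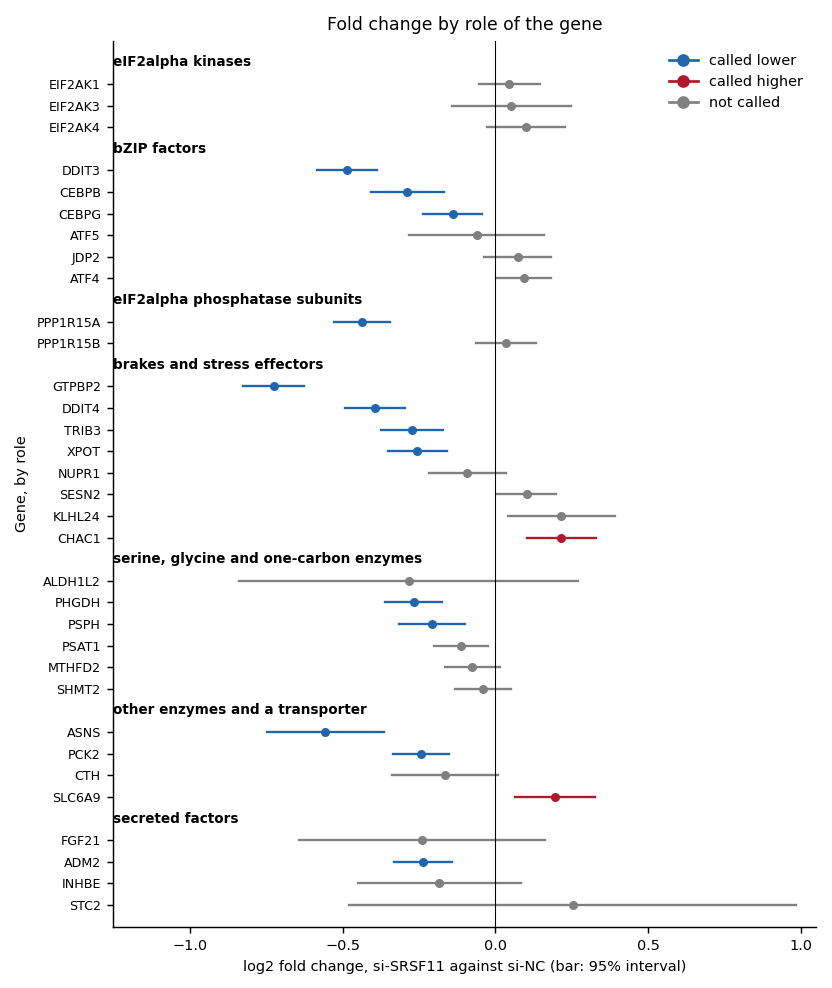
Log2 fold change (si-SRSF11 against si-NC) of the 33 tested members by role, with 95% intervals from edgeR's quasi-likelihood fit, coloured by call. Calls on the low side appear in each role but the kinases, from -0.73 in GTPBP2 to -0.14 in CEBPG, and the only calls on the high side are CHAC1 at 0.22 and SLC6A9 at 0.19.

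In the serine pathway, the first and the last enzyme were called lower. PHGDH, which opens serine synthesis from glycolysis, had 539.9, 516.5 and 538.5 CPM in si-NC and 428.5, 445.9 and 450.6 CPM in si-SRSF11, a log2 fold change of -0.27 (SE 0.045). PSPH, which releases serine in the last step, had 135.4, 134.6 and 145.7 CPM in si-NC and 124.7, 112.9 and 122.5 CPM in si-SRSF11, a log2 fold change of -0.21 (SE 0.052). PSAT1, the transaminase between them, stood at 586 ± 2.50 CPM in si-NC and 541 ± 4.28 CPM in si-SRSF11 (SD, n = 3). It missed the threshold with a log2 fold change of -0.11 (SE 0.043), although the groups did not overlap, and it passed under 7 of the 8 other choices of test, scaling, filter or design and without si-SRSF11 replicate 3 (-0.12). The mitochondrial enzymes of the one-carbon cycle were not called. SHMT2, which splits serine into glycine and a one-carbon unit, had 672 ± 19.3 and 653 ± 19.5 CPM (SD, n = 3), and its 95% interval ran from -0.13 to 0.05. MTHFD2, which oxidizes that unit, had 497 ± 8.19 and 471 ± 5.77 CPM (SD, n = 3), with an interval from -0.17 to 0.01. ALDH1L2, which releases it as carbon dioxide, had 24 to 38 counts per library and a wide interval, from -0.84 to 0.27.

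ASNS, the enzyme that makes asparagine, had 21.79, 24.61 and 26.45 CPM in si-NC and 16.56, 16.24 and 16.74 CPM in si-SRSF11. The knockdown libraries lay below the controls and close together, with a log2 fold change of -0.56 (SE 0.092), or 68.0% of the si-NC level. This level is uncertain, since 44.6% of the exon bases of ASNS, and 79.4% of all 100-nt stretches in its longest transcript, are shared with the overlapping gene AC079781.5 on the same strand, which itself had 3 to 12 counts per library. PCK2, the mitochondrial enzyme that makes phosphoenolpyruvate, had 686.5, 650.9 and 688.6 CPM in si-NC and 571.4, 557.1 and 583.4 CPM in si-SRSF11, a log2 fold change of -0.24 (SE 0.044). SLC6A9, the glycine transporter GlyT1, was the other gene called higher, with 45.79, 46.72 and 43.33 CPM in si-NC and 52.43, 54.27 and 48.75 CPM in si-SRSF11. Its log2 fold change of 0.19 (SE 0.063) lost the call with DESeq2 and with library size scaling. The same held without si-NC replicate 1 (0.20), si-NC replicate 3 (0.16), si-SRSF11 replicate 1 (0.18) or si-SRSF11 replicate 2 (0.16). CTH, which makes cysteine from cystathionine, had 33.9 ± 3.28 and 30.2 ± 2.82 CPM (SD, n = 3) and overlapping groups.

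Of the secreted factors, ADM2 was the only member called. ADM2, a peptide of the calcitonin family, had 155.5, 152.1 and 155.1 CPM in si-NC and 134.2, 130 and 128.3 CPM in si-SRSF11, a log2 fold change of -0.24 (SE 0.046) with no overlap. FGF21, a metabolic hormone, had 4.99 ± 1.13 and 4.23 ± 0.737 CPM (SD, n = 3), with an interval from -0.64 to 0.16. INHBE, a subunit of activin E, had 10.5 ± 0.886 and 9.29 ± 1.38 CPM (SD, n = 3), with an interval from -0.45 to 0.08. STC2, stanniocalcin 2, had 10 to 27 counts per library and an interval from -0.48 to 0.98. In these 3 genes the groups overlapped, and differences of the size seen in ADM2 lay within their intervals.

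Members with the promoter core printed above were found among the genes called lower, called higher and not called. Of the 6 tested members with the core, 2 were called lower (ASNS and CEBPG), 1 higher (CHAC1) and 3 were not called (FGF21, JDP2 and PPP1R15B), with a median log2 fold change of -0.05. Of the 21 tested members whose promoter window held no core, 10 were called lower and 1 higher, with a median of -0.17. Over all tested genes 11.4% were called lower and 13.2% higher, and at 100 CPM or more 19.0% were called lower. Because the set was chosen on this contrast, nothing is read from the difference between these groups, which was not tested. Leaders were read from a single principal transcript per gene in GENCODE 29, the longest where several ranked alike. Of the 33 tested members, 20 (60.6%) had an ATG in the leader upstream of the coding sequence, beside 52.7% of 12731 tested protein-coding genes. The leaders had a median length of 292 bases in the members and 198 bases in those genes. In the transcripts so taken, ATF4 had 7 upstream ATGs in a leader of 882 bases, while PPP1R15A, PPP1R15B, DDIT3 and ATF5 had 2 each. Other isoforms were not read.

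Genes of the same pathway outside the set were read from lists of textbook members, written with earlier results of these data known. Among 26 other ATF4 targets, all tested, 13 were called lower and 3 higher, with a median log2 fold change of -0.13. Over all tested genes 11.4% were called lower and 13.2% higher, and at a mean of at least 100 CPM 19.0% were called lower. GDF15, a stress-induced cytokine, fell from 1584 ± 69.7 to 1048 ± 73.5 CPM (SD, n = 3), or by 0.60 on the log2 scale (edgeR's quasi-likelihood test, adjusted p = 1.2e-08). AARS, the alanyl-tRNA synthetase, fell by 0.40 on the log2 scale (adjusted p = 1.5e-06, same test), and ATF3, a bZIP repressor, fell by 0.46 (adjusted p = 4.2e-06, same test). The 3 that rose, named after their values were seen, were the amino acid enzymes ALDH18A1 (0.27) and GPT2 (0.26) and the amino acid transporter SLC38A2 (0.19).

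Of the eIF2 and eIF2B machinery, 7 of 19 tested genes were called higher and 1 lower, beside 13.2% and 11.4% of all tested genes, with a median of 0.10. The count of 7 was unstable, with 4 higher by DESeq2, 3 higher and 2 lower with library size scaling, 5 higher by upper quartile scaling or among protein-coding genes alone, and 4 higher with no filter. It was 3 to 6 higher with 1 library left out, and 3 without si-NC replicate 2, si-NC replicate 3 or si-SRSF11 replicate 2. EIF2S2, the beta subunit of eIF2, rose by 0.26 on the log2 scale (edgeR's quasi-likelihood test, adjusted p = 2.7e-04). EIF2AK2 (PKR), the eIF2alpha kinase that senses double-stranded RNA, rose by 0.27 (adjusted p = 0.0027, same test). DELE1, which carries mitochondrial stress to EIF2AK1, fell by 0.24 on the log2 scale (adjusted p = 0.0023, same test). The XBP1 and ATF6 arms of the endoplasmic reticulum response, which do not run through eIF2alpha, were split. Of their 16 genes, 7 were called higher and 4 lower, beside 24.6% of all tested genes called in either direction and 45.3% of those at 100 CPM or more, with a median of 0.01 that turned to -0.02 with library size scaling. The chaperones PDIA4 (0.52, adjusted p = 2.3e-08), HSP90B1 (0.46, adjusted p = 1.1e-07) and CALR (0.42, adjusted p = 4.0e-07) rose in edgeR's quasi-likelihood test. The 4 that fell, named after their values were seen, were DNAJB9 (-0.58), ERN1 (-0.39), EDEM1 (-0.35) and HERPUD1 (-0.16). Differences between these lists and the stress response genes were not tested.

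Some members share exon bases with neighbours, and the library kit does not keep strand. DDIT4 shares 41.2% of its exon bases with DDIT4-AS1, which had 0 counts in each library. DDIT3 shares 39.6%, mostly with MARS on the opposite strand, which had 5458 to 6774 counts per library and was itself called lower (-0.32). The part of that overlap in the DDIT3 counts was not tested. MARS also belongs to the other ATF4 targets listed above, so its call and that of DDIT3 may not be separate. MTHFD2 shares 33.2% with SLC4A5 (11 to 30 counts per library) and AC006030.1, and ATF5 shares 23.7% with its neighbours. DDIT3 also lies near other members on chromosome 12, 57.3 kb beyond INHBE, which in turn lies 217.4 kb beyond SHMT2, and of these neighbours DDIT3 alone was called.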

How the data were processed

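Samples were grouped by the deposited labels into 3 si-NC and 3 si-SRSF11 libraries of LoVo cells. The authors deposited raw counts per gene, with no normalization and no filter, and per the labels the genome build is hg38. The aligner, the counting program and its strand setting are not given in the sources used here, and the library kit does not mark strand. Gene identifiers, and the start, end and exon length of 58724 of 58735 genes, matched GENCODE 29. Library totals ran from 14369525 to 16685719 counts.

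The filter kept the 15801 genes that had 10 counts or more in 3 libraries or more. They were scaled by TMM and tested with edgeR (version 4.0.16, R version 4.3.3) by glmQLFit and glmQLFTest on condition alone. The Benjamini-Hochberg adjustment of p covered all tested genes, and a gene was called at an adjusted p under 0.05. Standard errors and 95% intervals came from the quasi-likelihood F statistic. CPM used the TMM library sizes, and TPM was computed from the counts and the exon length in the table. The fit was tested on simulated data. Libraries of a condition were not duplicates, since counts of each pair differed by more than sampling noise (chi-square per gene 2.09 or more). Promoter sequences were taken from RefSeq (GRCh38.p14), and leaders and exon overlaps from GENCODE 29 with Python (version 3.11.15).

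The members and the other lists were chosen with earlier results of these data known. All 36 members are named, with the value in every library for ATF4 and the called members. From each other list at most 3 genes with the smallest adjusted p under 0.05 are named. Names outside this rule are marked, except for the cell type markers and for MARS, which is named as a neighbour of DDIT3. A list of paralogues is not reported here, apart from GTPBP1. The test was also run in DESeq2 (version 1.42.0), with library size, upper quartile or RLE scaling, with no filter or a filter of 50 counts, on protein-coding genes alone, with a replicate block, and without each library in turn. For promoters, C as the free base of the core and the window before the start alone were tried.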

Additional observations from a re-analysis of the deposited data

How the results depend on the processing

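The members called lower numbered 13, with 12 to 14 over all alternatives. Of these, 12 kept their calls in each alternative, and CEBPG lost its call without si-NC replicate 1, 2 or 3. CHAC1 was called higher in each alternative. The members called higher went from 2 to 1 with DESeq2 and to 1 with scaling by library size alone, and ranged from 1 to 2 with 1 library left out, as SLC6A9 lost its call. PSAT1 gained a call in 7 of the 8 alternatives that keep all libraries. The cause was not tested. The uncalled genes that changed sign were PPP1R15B (-0.000138 with library size scaling), STC2 (-0.0365 without si-NC replicate 3, with a range of -0.0365 to 0.561 over libraries left out), EIF2AK3 (-0.0191 without si-SRSF11 replicate 2, range -0.0191 to 0.104) and ATF5 (0.0533 without si-SRSF11 replicate 2, range -0.145 to 0.0533). Over all genes, 3886 were called, 3060 with DESeq2 and 2733 to 3877 with 1 library left out. SRSF11 kept its call throughout. With the replicate number as a block, 4036 genes were called, with 2 members higher and 14 lower, and no other member changed its call than PSAT1. Deviations of same-numbered libraries correlated with r of 0.015, 0.036 and 0.040, so the numbers were not taken as pairs, although each library correlated best with its own number. The count of members with the promoter core was 6 of 30, 5 with C as the free base and 6 in the window before the start alone. Genes with few counts (ALDH1L2, STC2, FGF21, INHBE) had wide intervals, and differences below about the intervals printed were not detectable at this depth.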
